A study of Mus musculus with 11 samples.

Results

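Arpp21, Endou, Aqp11 and Mns1 are 4 genes that were read together, by their symbols, in both count tables of a series on CD24-negative, TCRb-negative mouse thymocytes. They were chosen with results of these libraries known. Which comparison was used to choose them is not recorded, so every comparison with +/+ libraries is given here as a description. No p-value of the 4 genes is given for those comparisons, and counts of calls among them only describe the choice. They are 4 of the 53402 genes listed in both tables. All 4 passed the filter on low counts in each table, which left 10910 genes tested for Bcl11b and 12366 genes tested for Tcf7. Endou and Arpp21 passed in both tables through the +/+ libraries, as did Mns1 in the Tcf7 table, since too few mutant libraries reached the minimum count.

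The cells were sorted by FACS as CD24-negative, TCRb-negative thymocytes. CD24 is carried by most developing thymocytes, and the gate therefore leaves out the bulk of immature T cells. At postnatal day 0 there were 2 Bcl11b D/N440K libraries, 2 Bcl11b +/N440K libraries and 2 Bcl11b +/+ libraries. At postnatal day 7 there were 3 libraries labelled Tcf7 F/F:Vav1-Cre and 2 Tcf7 +/+ libraries. N440K is a changed residue of Bcl11b, a zinc finger factor of T cell commitment, and the labels do not define D. Tcf7 encodes TCF1, a factor of the TCF/LEF family. Vav1-Cre is a recombinase active across blood cells, so its action is not limited to thymocytes. The tables differ in age and were kept apart in every test. The 2 comparisons with Bcl11b +/+ share its 2 libraries. Nothing in the labels says that replicates came from separate animals, so the spread and each p-value measure only the differences between these libraries, which may be technical.

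While T cell receptor genes are assembled in the thymus, cells pass through immature stages that express the recombinase genes Rag1 and Rag2. Arpp21 encodes a cAMP-regulated phosphoprotein with an R3H domain that binds RNA. In mice it is known from the brain and from immature thymocytes, where it has been described as binding Rag1 transcripts. Endou encodes a uridylate-specific endoribonuclease that has been studied in mouse B cells. Aqp11 encodes an aquaporin of the endoplasmic reticulum, whose loss in mice gives cystic kidneys. Mns1 encodes a coiled-coil protein of the axoneme, known from sperm flagella and motile cilia.

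On GRCm38, Arpp21 (ENSMUSG00000032503) lies on chromosome 9 from 112065091 to 112235938 on the minus strand. Its 31 annotated transcripts join to 17428 exonic bases. Its intron holds Mir128-2, and 580 of its exonic bases are shared with an antisense lincRNA, 2900079G21Rik, which had 0 to 3 counts in any library. Endou (ENSMUSG00000022468) lies on chromosome 15 from 97711015 to 97731339 on the minus strand, with 2745 exonic bases. Aqp11 (ENSMUSG00000042797) lies on chromosome 7 from 97724006 to 97738289 on the minus strand, with 9418 exonic bases. Neither overlaps another annotated gene. Mns1 (ENSMUSG00000032221) lies on chromosome 9 from 72438011 to 72462025 on the plus strand, with 5363 exonic bases. Of these, 2842 are shared with Tex9, a gene on the other strand. The strand used in counting is not given in the sources used here, so reads of Mns1 and Tex9 could not be told apart over that stretch.

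The starts of 3 of the 4 genes were available as RefSeq windows of 300 bases on GRCm38.p6, from 250 bases before the start to 50 after it. They are shown because Tcf7 encodes a factor of the TCF/LEF family. Each is written 5′ to 3′ on the strand of its gene. Capitals mark the letters CTTTGA, a core word of TCF/LEF motifs, read on either strand. The Arpp21 window is the one furthest upstream of its 9 windows.
Arpp21, chr9:112233673-112233972, minus strand: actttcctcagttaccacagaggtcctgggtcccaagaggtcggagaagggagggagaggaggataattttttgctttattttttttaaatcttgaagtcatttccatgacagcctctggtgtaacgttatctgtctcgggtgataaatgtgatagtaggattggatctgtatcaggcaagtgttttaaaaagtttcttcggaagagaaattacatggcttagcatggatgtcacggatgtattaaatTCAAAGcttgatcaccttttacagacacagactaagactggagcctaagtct
Aqp11, chr7:97738198-97738497, minus strand: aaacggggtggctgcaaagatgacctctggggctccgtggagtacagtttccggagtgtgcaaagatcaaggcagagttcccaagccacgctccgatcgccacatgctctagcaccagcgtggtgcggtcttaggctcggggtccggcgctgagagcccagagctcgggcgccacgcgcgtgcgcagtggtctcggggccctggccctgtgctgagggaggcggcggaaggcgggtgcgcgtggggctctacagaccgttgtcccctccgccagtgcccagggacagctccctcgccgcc
Mns1, chr9:72438279-72438578, plus strand: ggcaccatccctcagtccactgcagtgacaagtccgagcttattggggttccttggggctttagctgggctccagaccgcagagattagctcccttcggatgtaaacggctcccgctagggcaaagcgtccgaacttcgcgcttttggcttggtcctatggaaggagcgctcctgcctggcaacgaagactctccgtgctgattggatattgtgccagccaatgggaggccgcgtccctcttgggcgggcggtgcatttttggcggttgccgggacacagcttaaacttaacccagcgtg

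CTTTGA was found in 4 of the 9 Arpp21 windows, some of which overlap each other. In the window printed above it begins at position -2, counted from the start of transcription, and reads TCAAAG on the gene's strand. The same search found it in 16.0% of 32851 windows of all genes. CAGNTG, the E-box of E proteins, was found in 8 of the 9 Arpp21 windows, the printed one being the exception, against 51.4% of all windows. TGTGGT, a RUNX word, stood in 3 of the 9 and in 16.8% of all windows. The word AGATAA, which GATA factors bind, stood in 1 of the 9 and in 11.2% of all windows. The Aqp11 and Mns1 windows held none of the 4 words on either strand. A match here is a run of letters and not a binding site, and no binding was measured.

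Arpp21 also carries a microRNA. The intronic hairpin Mir128-2 gives miR-128-3p, which is identical to the 3p product of Mir128-1 in an intron of R3hdm1 on chromosome 1. The mature sequences are shown because Arpp21 hosts only 1 of the 2 copies. Capitals mark the seed, bases 2 to 8.
miR-128-3p from Mir128-2, chr9:112118644-112118664, minus strand, and from Mir128-1, chr1:128202404-128202424, plus strand: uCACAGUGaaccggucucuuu
miR-128-2-5p, chr9:112118679-112118701, minus strand: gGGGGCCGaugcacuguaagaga
miR-128-1-5p, chr1:128202369-128202389, plus strand: cGGGGCCGuagcacugucuga

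The 5p products share the seed GGGGCCG. The Mir128-2 hairpin had 0 counts in all 11 libraries, and the Mir128-1 hairpin had 0 to 4. These libraries were not made for small RNAs, so the mature microRNA was not measured. R3hdm1, the host of the other copy and a related R3H-domain gene, had a log2 fold change of 0.04 ± 0.0988 (SE) in D/N440K against +/+ and of -0.14 ± 0.1 in +/N440K against +/+. It was 0.25 ± 0.126 in libraries labelled Tcf7 F/F:Vav1-Cre against Tcf7 +/+. R3hdm1 and its relative R3hdm2 passed the edgeR test in 0 of the 4 comparisons (lowest adjusted p of 0.168, with 0 of the 2 genes at an unadjusted p under 0.05).

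Total counts per library were 999381 to 1842717, with 17544 to 20480 genes seen. Bcl11b was at 151.6 and 203.6 CPM (read counts scaled to the size of the library, with TMM factors) in D/N440K libraries, at 185.2 and 225.04 CPM in +/N440K libraries, and at 641.4 and 505.6 CPM in +/+ libraries. Tcf7 was at 846.7, 658.3 and 694.3 CPM in libraries labelled Tcf7 F/F:Vav1-Cre, against 552.2 and 593.5 CPM in Tcf7 +/+ libraries. Its gene counts were thus not lower under that label (log2 fold change 0.35 ± 0.125, edgeR adjusted p = 0.0497), and whether counts fell on the deleted part is not known from the labels. Every Tcf7 comparison below is between libraries as labelled. All 17 genes of an immature thymocyte list had reads in both +/+ groups.

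**Figure D1:**
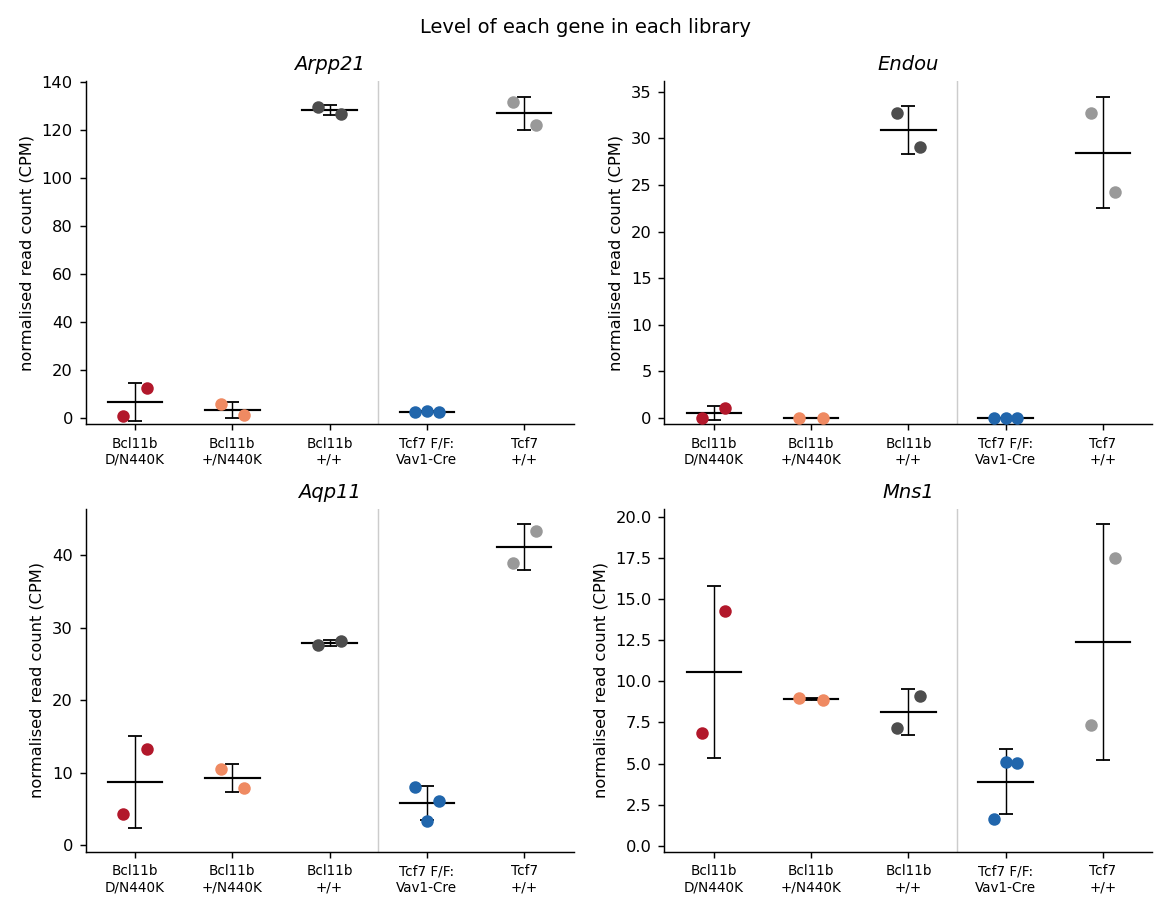
Normalised read count (CPM, linear axis from 0) of Arpp21, Endou, Aqp11 and Mns1 in each of the 11 libraries, with the mean (long bar) and SD (short bars) of each group, 2 libraries a group and 3 in Tcf7 F/F:Vav1-Cre. Arpp21, Endou and Aqp11 are lower in every D/N440K, +/N440K and Tcf7 F/F:Vav1-Cre library than in any +/+ library of the same table, while Mns1 overlaps between the Bcl11b groups.

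Arpp21, the RNA-binding protein of immature thymocytes, was close to absent from the mutant libraries. It had 0.856 and 12.2 CPM in D/N440K libraries, 5.71 and 0.987 CPM in +/N440K libraries, and 129.9 and 127 CPM in Bcl11b +/+ libraries. These are 1 and 12 reads, 7 and 1 reads, and 127 and 153 reads. The mutant groups overlapped each other and neither came near +/+. The log2 fold change was -4.38 ± 0.319 (SE) in D/N440K against +/+ and -5.12 ± 0.351 in +/N440K against +/+, which placed Arpp21 at rank 12 and rank 13 from the lowest of 10910 tested genes. D/N440K replicate 2 set the size of the first value, which was -7.05 without it, and +/N440K replicate 1 that of the second, which was -6.86 without it.

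In the Tcf7 table Arpp21 had 2.43, 2.83 and 2.23 CPM in libraries labelled Tcf7 F/F:Vav1-Cre, against 132 and 122 CPM in Tcf7 +/+ libraries. The 3 low libraries were close to each other and rested on 3, 5 and 4 reads. The log2 fold change was -5.63 ± 0.269 (rank 36 from the lowest of 12366). In a bulk sample, fewer cells that express a gene and less RNA per cell cannot be told apart, and this holds for each fold change here.

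Endou, the endoribonuclease, was nearly or wholly without reads in every mutant library. It had 0 and 1.02 CPM in D/N440K libraries, 0 CPM in both +/N440K libraries, and 32.7 and 29.1 CPM in Bcl11b +/+ libraries. The D/N440K pair held 1 read in all and the +/N440K pair 0, against 67 in the +/+ pair. Endou was therefore 66.0-fold lower in D/N440K than in +/+ by counting (95% exact interval 11.5 to 2646) and at least 22.9-fold lower in +/N440K, with the empty pair set to a floor of 3 counts over the group, which is 1.34 CPM.

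Endou had 0 reads in all 3 libraries labelled Tcf7 F/F:Vav1-Cre, against 32.7 and 24.2 CPM in Tcf7 +/+ libraries, which are 58 and 43 reads. Endou was thus at least 45.6-fold lower there, against a floor of 3 counts over the group, which is 0.624 CPM. These intervals and floors take in counting error alone, because PCR reads without molecular identifiers are not independent molecules. Because Endou has been studied in B cells, B lineage markers are given beside it. Their summed level was 9.16 to 11.99 CPM in D/N440K, 13.9 to 21.7 CPM in +/N440K and 27.6 to 34.0 CPM in Bcl11b +/+ libraries, where Ms4a1 and Pax5 were at 0. It was 43.5 to 56.6 CPM in libraries labelled Tcf7 F/F:Vav1-Cre and 150 to 158 CPM in Tcf7 +/+ libraries. In that comparison 5 of the 6 markers fell, where 11.1% of all tested genes were called lower. The part of B lineage cells in the Endou values was not tested.

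Aqp11, the aquaporin of the endoplasmic reticulum, was lower in the mutants by a smaller factor. It had 4.28 and 13.2 CPM in D/N440K libraries, 10.6 and 7.90 CPM in +/N440K libraries, and 27.6 and 28.2 CPM in Bcl11b +/+ libraries. The 4 mutant libraries interleaved and the +/+ pair lay above all of them. The log2 fold change was -1.72 ± 0.387 in D/N440K against +/+ and -1.56 ± 0.373 in +/N440K against +/+. The first value was -1.07 without D/N440K replicate 1 and -2.67 without D/N440K replicate 2.

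In the Tcf7 table Aqp11 had 8.09, 3.39 and 6.12 CPM in libraries labelled Tcf7 F/F:Vav1-Cre, against 38.9 and 43.4 CPM in Tcf7 +/+ libraries. All 3 lay below both +/+ libraries, and the log2 fold change was -2.85 ± 0.310. Of 10 other aquaporin genes, 2 had enough reads to be tested in each table. Aqp3, an aquaglyceroporin, fell in D/N440K against +/+ (log2 fold change -2.26 ± 0.331, edgeR adjusted p = 1.81e-06) and in +/N440K against +/+ (-1.13 ± 0.275, adjusted p = 0.00363). It rose by 1.07 ± 0.199 in libraries labelled Tcf7 F/F:Vav1-Cre against Tcf7 +/+ (adjusted p = 0.000747). Aqp9 did not pass the test in any comparison.

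Mns1, the axoneme protein, was the exception in the Bcl11b table. It had 6.85 and 14.2 CPM in D/N440K libraries, 8.98 and 8.88 CPM in +/N440K libraries, and 7.16 and 9.13 CPM in Bcl11b +/+ libraries. The 3 groups overlapped on 7 to 14 reads a library. The log2 fold change was 0.31 ± 0.489 in D/N440K against +/+ and 0.11 ± 0.500 in +/N440K against +/+, each smaller than its SE.

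In the Tcf7 table Mns1 had 1.62, 5.09 and 5.01 CPM in libraries labelled Tcf7 F/F:Vav1-Cre, against 7.33 and 17.5 CPM in Tcf7 +/+ libraries. These are 2, 9 and 9 reads against 13 and 31 reads. The groups did not overlap, but the lower +/+ library lay close to the upper mutant ones. The log2 fold change was -1.57 ± 0.493. It was -0.82 without Tcf7 +/+ replicate 2 and -2.06 without Tcf7 +/+ replicate 1. Tex9, which shares exonic bases with Mns1, had a mean of 10.7 ± 0.584 CPM (SD, n = 3) there against 25.1 ± 5.98 CPM in Tcf7 +/+ libraries (SD, n = 2), a log2 fold change of -1.23 ± 0.288 (edgeR adjusted p = 0.00456). Whether Tex9 reads were counted for Mns1 was not tested. Whether the Tcf7 and Bcl11b effects on Mns1 differ was not tested either.

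Of 13 genes of motile cilia, the structure Mns1 is known from, 11 were listed in the tables and 0 had enough reads to be tested. Their summed level was 10.3 to 19.3 CPM in D/N440K, 9.87 to 12.2 CPM in +/N440K and 9.21 to 11.6 CPM in Bcl11b +/+ libraries. It was 14.5 to 15.4 CPM in libraries labelled Tcf7 F/F:Vav1-Cre and 13.5 to 14.7 CPM in Tcf7 +/+ libraries. Dnah5 and Tekt1, a dynein and a tektin of the ciliary axoneme, were at 0 in all 5 groups.

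**Figure D2:**
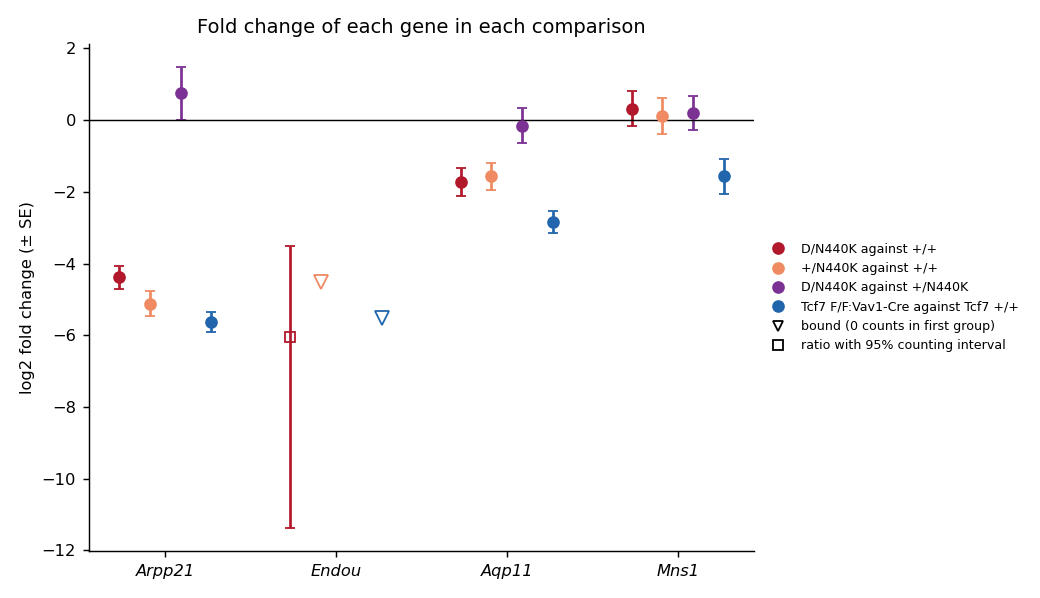
Log2 fold change of each gene in 4 comparisons, from edgeR with SE (circles), as a bound where the first group had 0 counts (triangles) or as a counting ratio with its 95% interval (square). Arpp21, Endou and Aqp11 lie below 0 in the 3 comparisons with +/+, Mns1 in the Tcf7 comparison, and the D/N440K against +/N440K values of Arpp21, Aqp11 and Mns1 lie within about 1 SE of 0.

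Counted by the edgeR call (adjusted p under 0.05), 3 of the 4 genes were lower in D/N440K than in +/+, where 12.4% of tested genes were called and 6.31% were called lower. In +/N440K against +/+ 3 of the 4 were lower, where 10.1% of tested genes were called and 5.3% were called lower. In libraries labelled Tcf7 F/F:Vav1-Cre against Tcf7 +/+ 4 of the 4 were lower, where 23.2% of tested genes were called and 11.1% were called lower. The genes may have been chosen on such comparisons, so nothing is read from these shares. The gene not called in either Bcl11b comparison is Mns1. Aqp11 was not called with DESeq2 in D/N440K or +/N440K, and Mns1 was not called with DESeq2 or without the filter in the Tcf7 table. Calls that other fits kept, as for Arpp21 and Endou, say nothing of stability in genes chosen with results known.

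D/N440K and +/N440K share the N440K allele and differ in the other Bcl11b allele. Of the 4 genes, 0 passed the edgeR test between them and 0 had an unadjusted p under 0.05, in a comparison in which 0.532% of tested genes were called (0.247% lower, 0.284% higher). DESeq2 gave an adjusted p for none of the 4. The log2 fold change was 0.74 ± 0.734 for Arpp21 (edgeR adjusted p = 0.915), -0.16 ± 0.492 for Aqp11 (adjusted p = 0.985) and 0.20 ± 0.477 for Mns1 (adjusted p = 0.981). Endou had 1 read in D/N440K against 0 in +/N440K (adjusted p = 0.891), both at or under the floor, and could not pass on so few. Endou and Arpp21 entered this test through the +/+ libraries alone. All 4 genes were chosen with results of these libraries known, so nothing is read from their p-values here. The groups overlapped for all 4 genes. These SE are wide at 1 to 14 reads a library, and a p that misses the threshold does not show that the genotypes are alike. The sign of the difference turned when a single library was left out for Arpp21 (-1.93 without D/N440K replicate 2), Aqp11 (0.49 without D/N440K replicate 1) and Mns1 (-0.38 without D/N440K replicate 2).

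The D/N440K pair was itself uneven for Arpp21. Arpp21 stood at 0.667% of the +/+ mean in replicate 1 (95% Poisson interval 0.0169 to 3.71%) and at 9.51% in replicate 2 (4.91 to 16.6%), intervals that do not meet. Aqp11 stood at 15.3% (4.98 to 35.8%) and 47.4% (25.2 to 81.0%), and Mns1 at 84.1% (36.3 to 165.7%) and 175% (95.6 to 293%). Replicate 2 was the higher library for all 4 genes, though Endou had only 0 and 1 read and the intervals of Aqp11 and Mns1 overlapped. Rag1 was at 4.02% (1.93 to 7.40%) in replicate 1 and 9.09% (5.47 to 14.2%) in replicate 2, also overlapping. Other genes of the immature thymocyte list ran both ways. Myb was at 46.2 and 68.2 CPM and Cd4 at 12.8 and 8.14 CPM in replicates 1 and 2. The share of all genes higher in replicate 2 was not counted. Cd24a, the gene of the sort marker, ran the other way, at 30.2% (8.23 to 77.3%) and 8.97% (0.227 to 50.0%).

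In the +/N440K pair, Arpp21 was at 4.45% (1.79 to 9.16%) in replicate 1 and 0.768% (0.0195 to 4.28%) in replicate 2, and Aqp11 at 38.0% and 28.3%. Mns1 was at 110.2% and 109% of the +/+ mean. Libraries labelled Tcf7 F/F:Vav1-Cre were closer together, with Arpp21 at 1.75 to 2.22%, Aqp11 at 8.24 to 19.7% and Mns1 at 13.0 to 41.0% of the Tcf7 +/+ mean. In each D/N440K and +/N440K library the percentage left was higher for Mns1 than for Aqp11 and higher for Aqp11 than for Arpp21. The order of Aqp11 and Mns1 was not the same in all libraries labelled Tcf7 F/F:Vav1-Cre, since in replicate 1 Aqp11 (19.7%) stood above Mns1 (13.0%), with overlapping intervals. The place of Endou beside Arpp21 cannot be read, since the upper 95% Poisson limit for Endou in a single empty library was 7.21 to 11.8%.

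**Figure D3:**
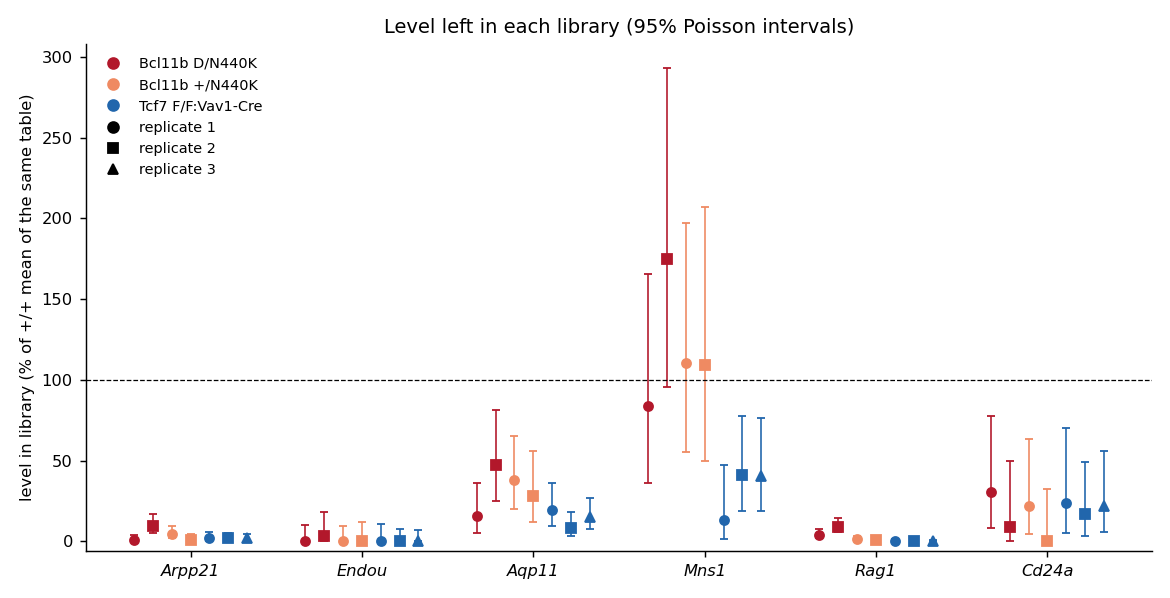
Level in each mutant library as a percentage of the +/+ mean of the same table, with 95% Poisson intervals of the reads, for the 4 genes and for Rag1 and Cd24a (dashed line at 100%). D/N440K replicate 2 (red square) lies above replicate 1 (red circle) for each gene except Cd24a, and the intervals meet 100% in D/N440K and +/N440K libraries only for Mns1.

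Levels of different genes were compared per kilobase of exonic length. In Bcl11b +/+ libraries Endou was at 11.3 ± 0.948 CPM per kb, Arpp21 at 7.37 ± 0.118, Aqp11 at 2.97 ± 0.0455 and Mns1 at 1.52 ± 0.260 CPM per kb (SD, n = 2 each). In Tcf7 +/+ libraries the order of levels was the same, at 10.4 ± 2.18 CPM per kb for Endou, 7.29 ± 0.387 for Arpp21, 4.37 ± 0.339 for Aqp11 and 2.31 ± 1.34 for Mns1. Endou and Arpp21 had the highest values per kb in +/+ libraries and the least left in the mutants. Both passed the filter through the +/+ libraries and were chosen with these results known, so nothing is read from this. Arpp21 has 31 transcripts of unequal length, and their joined exons may exceed what these cells use, which lowers its value per kb. Mns1 was divided by all its exonic bases, of which 2842 are shared with Tex9. How reads there were counted is not known, so the place of Mns1 beside Aqp11 is not secure.

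The 4 genes were next followed library by library. On log2 CPM centred on each table, Arpp21 and Endou had a Pearson correlation of 0.98 over the 11 libraries, Arpp21 and Aqp11 of 0.95, and Aqp11 and Endou of 0.93. Mns1 was less alike, at 0.51 with Arpp21, 0.55 with Aqp11 and 0.48 with Endou. These libraries fall into 5 groups, so the values describe mainly a shared step between mutant and +/+ libraries.

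Among 10494 other genes, those most like Arpp21 were Slc16a5, a monocarboxylate transporter family gene (0.975), Sox13, a factor of gamma-delta type 17 cells (0.969), and Myb, a factor of early thymocytes (0.968). Those most like Endou were Rapgef3, which encodes the cAMP-activated exchange factor Epac (0.986), Sox13 (0.984) and Hdac7, a histone deacetylase of thymocytes (0.982). Those most like Aqp11 were Focad (0.975), the lysosomal lipase gene Lipa (0.972) and Slc16a5 (0.968). Mns1 had a separate set, Gk5 (0.966), Nudt5 (0.966) and Tmem209 (0.946). The mean profile of the 4 genes was most like Slc16a5 (0.991), Myb (0.989), Rapgef3 (0.979), Nsg2 (0.976), the recombinase gene Rag1 (0.976) and the transferrin receptor gene Tfrc (0.974).

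Rapgef3 and Hdac7, alike with Endou over the libraries, are also its neighbours on chromosome 15. This was noticed after their values were seen, and a window of 200 kb around each of the 4 genes was set afterwards. Around Endou, 5 of 8 annotated genes were tested. Rapgef3, Hdac7 and Vdr, which encodes the vitamin D receptor, had lower values in D/N440K, in +/N440K and in libraries labelled Tcf7 F/F:Vav1-Cre. Since Rapgef3 and Hdac7 were picked for their likeness to Endou and the window followed from them, no p-value is given for the genes around Endou. Rpap3, the nearest gene at 5.19 kb, and Slc48a1, a heme transporter gene at 47.2 kb, had log2 fold changes between -0.07 and -0.48 in these comparisons.

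Rapgef3, 13.4 kb from Endou, had 0.856 and 4.07 CPM in D/N440K libraries, 0 and 0.987 CPM in +/N440K libraries, and 33.8 and 26.6 CPM in Bcl11b +/+ libraries. Like Endou it was nearly without reads in the mutants. Its log2 fold change in D/N440K against +/+ was -3.62 ± 0.522. In +/N440K, 1 read stood against 65 in +/+, a 66.7-fold lower level (95% exact interval 11.6 to 2674). In libraries labelled Tcf7 F/F:Vav1-Cre it had 0, 0 and 0.556 CPM, against 19.7 and 23.1 CPM in Tcf7 +/+ libraries, which is 103-fold lower (95% exact interval 17.9 to 4116).

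Hdac7, 61.3 kb from Endou, averaged 253 ± 26.8 CPM in D/N440K, 291 ± 6.49 in +/N440K and 609 ± 55.2 CPM in Bcl11b +/+ libraries (SD, n = 2 each). Its log2 fold change was -1.27 ± 0.0910 in D/N440K against +/+ and -1.06 ± 0.0882 in +/N440K against +/+. In libraries labelled Tcf7 F/F:Vav1-Cre against Tcf7 +/+ it was -1.30 ± 0.140. Vdr, 123 kb away, had a log2 fold change of -3.43 ± 0.393 in D/N440K, -2.36 ± 0.328 in +/N440K and -1.27 ± 0.159 in libraries labelled Tcf7 F/F:Vav1-Cre.

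Around Aqp11, 7 genes were tested and edgeR called 0 in each of the 3 comparisons (lowest adjusted p of 0.130). At an unadjusted p under 0.05 there were 0 in D/N440K, 2 in +/N440K and 2 in libraries labelled Tcf7 F/F:Vav1-Cre. Around Mns1, edgeR called 0 of 7 tested genes in D/N440K, where 1 had an unadjusted p under 0.05, and 1 of 7 lower in +/N440K, Gm36948, an unclassified transcript inside Mns1. In libraries labelled Tcf7 F/F:Vav1-Cre it called 3 of 8 lower, Tex9, the zinc finger gene Zfp280d (-0.78 ± 0.150) and the transcription factor gene Rfx7 (-0.46 ± 0.138). Of all tested genes, 5.3% were called lower in +/N440K and 11.1% in the Tcf7 comparison. Around Arpp21, 0 of 5 annotated genes had enough reads to be tested. Whether the share around Endou differs from that around other genes was not tested.

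**Figure D4:**
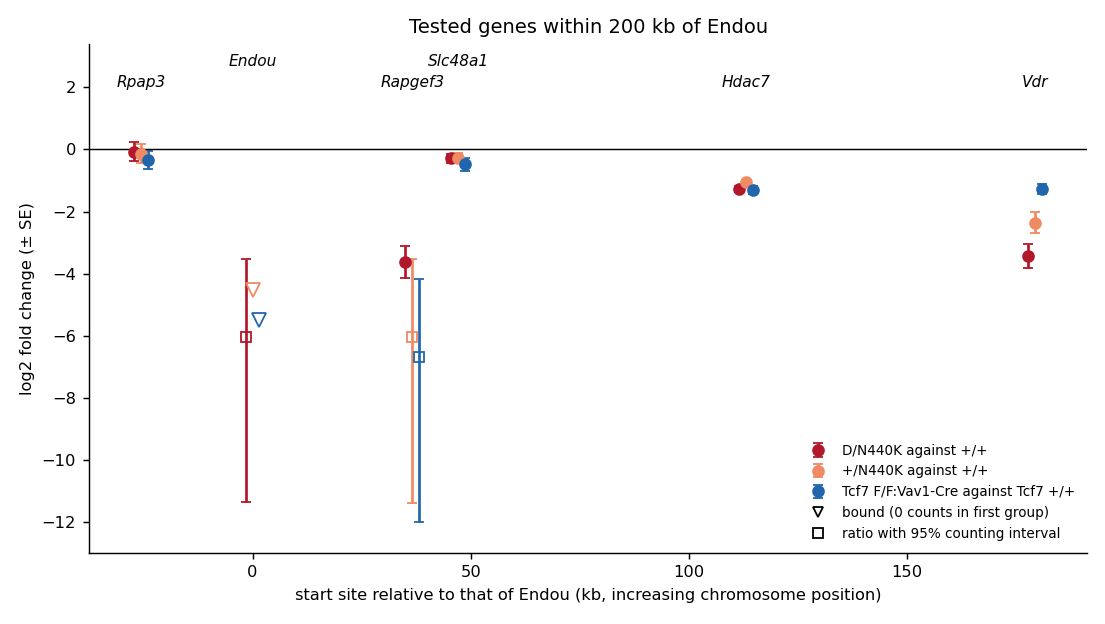
Log2 fold change of Endou and the 5 tested genes within 200 kb, against the distance of each start site from that of Endou (kb), with SE (circles), as a bound (triangles) or as a counting ratio with its 95% interval (squares). Endou, Rapgef3, Hdac7 and Vdr lie below 0 in all 3 comparisons, while Rpap3 and Slc48a1, whose start sites lie to the left of Endou and between those of Rapgef3 and Hdac7, stay within 0.48 of 0.

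The label of the 4 genes as immature-thymocyte genes was set beside a list of 17 genes of the stages at which receptor genes are assembled. In D/N440K against +/+, 13 of 15 tested genes fell, 0 rose and 2 (Il2ra and Notch1) did not pass. Of all tested genes, 6.31% were called lower there and 6.1% higher. The median log2 fold change of the list was -1.85 against 0.00 over all tested genes. In +/N440K against +/+, 12 fell, 0 rose and 3 (Cd1d1, Il2ra and Notch1) did not pass, with a median of -1.88. Of all tested genes, 5.3% were called lower there and 4.79% higher. In libraries labelled Tcf7 F/F:Vav1-Cre, 12 of 16 fell, 2 rose and 2 (Notch1 and Notch3) did not pass. Of all tested genes, 11.1% were called lower there and 12% higher. The median of the list was -1.46 against -0.01 over all tested genes. This list, too, was written with earlier results of these data known. Its counts and the p-values of its genes below are therefore a description and no independent support. Rag1 and Myb were also named above for their likeness to the 4 genes.

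Rag1, whose transcript Arpp21 is described to bind, had 8.56 and 19.3 CPM in D/N440K, 2.45 and 0.987 CPM in +/N440K, and 209.7 and 216 CPM in Bcl11b +/+ libraries. Its log2 fold change was -3.97 ± 0.205 in D/N440K against +/+ (edgeR adjusted p = 2.79e-18) and -6.81 ± 0.302 in +/N440K against +/+ (adjusted p = 2.67e-20). Between the mutants Rag1 was higher in D/N440K by 2.84 ± 0.621 (adjusted p = 0.0142), a call lost without D/N440K replicate 2 (2.19, adjusted p = 0.351), without +/N440K replicate 2 (2.41, adjusted p = 0.0951) or with DESeq2 (2.93, adjusted p = 0.118). Arpp21, Aqp11 and Mns1 had no such call, as given above.

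In libraries labelled Tcf7 F/F:Vav1-Cre, Rag1 had 0.809, 1.13 and 0.556 CPM, against 327 and 399 CPM in Tcf7 +/+ libraries, a log2 fold change of -8.65 ± 0.275 (edgeR adjusted p = 1.87e-12). Rag2 and Dntt, the terminal transferase gene, had 0 reads there and were at least 24.4-fold and at least 57.8-fold lower. Satb1, a chromatin organiser of thymocytes, fell (log2 fold change -2.52 ± 0.129, edgeR adjusted p = 4.93e-10), as did Myb (-3.08 ± 0.177, adjusted p = 2.01e-09). Il2ra, the gene of CD25, rose by 2.77 ± 0.155 (adjusted p = 1.64e-09) and Cd4 by 0.80 ± 0.143 (adjusted p = 0.000517). Ptcra, also on the list, had too few reads to be tested in either table. It had 2, 5 and 9 reads in libraries labelled Tcf7 F/F:Vav1-Cre, against 1 and 2 in Tcf7 +/+ libraries. In the Bcl11b table it had 0 and 1 reads in D/N440K, 1 and 0 in +/N440K, and 6 in each +/+ library.

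Lef1, a TCF/LEF factor, was next to Rag1 by p in both Bcl11b comparisons. Its log2 fold change was -1.85 ± 0.115 in D/N440K (edgeR adjusted p = 1.55e-15) and -1.79 ± 0.114 in +/N440K (adjusted p = 3.09e-15). The next gene of the list by p was the co-receptor gene Cd8a in D/N440K (-3.03 ± 0.200, adjusted p = 6.89e-15) and the receptor gene Notch3 in +/N440K (-2.48 ± 0.177, adjusted p = 1.01e-13). In D/N440K against +/N440K, Cd8a fell (-1.15 ± 0.265, edgeR adjusted p = 0.0264), Rag1 rose and 13 genes of the list did not pass. The list had 0 genes called lower there with DESeq2, and 0 without D/N440K replicate 1, D/N440K replicate 2 or +/N440K replicate 2.

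**Figure D5:**
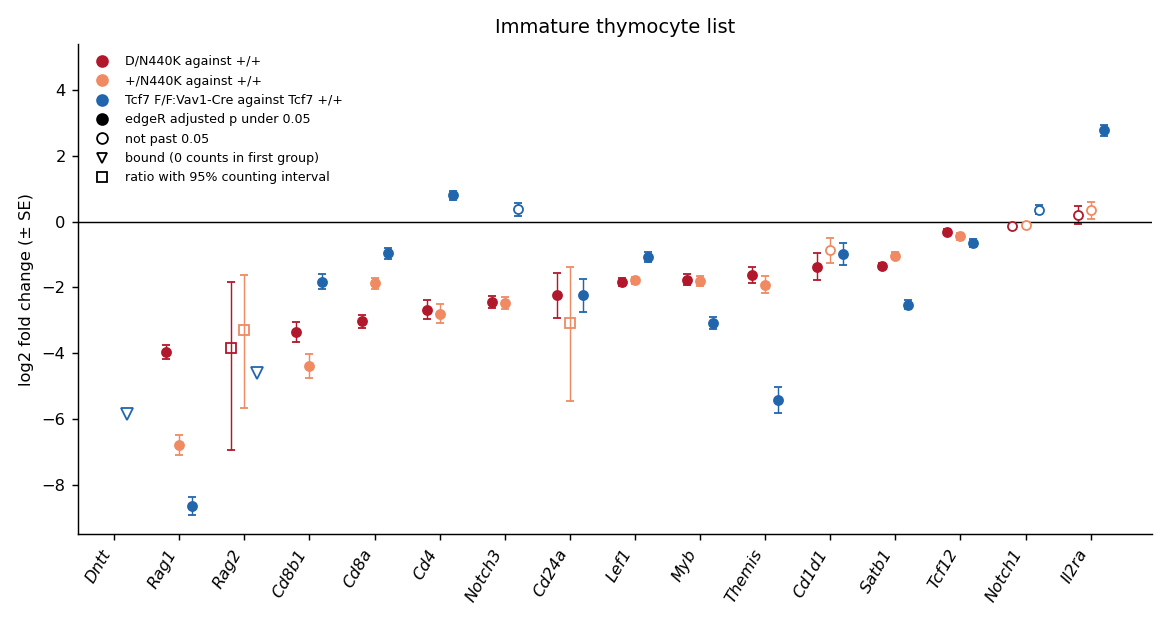
Log2 fold change of the tested genes of the immature thymocyte list in 3 comparisons, ordered by D/N440K against +/+, with SE; filled circles passed the edgeR test, open circles did not, triangles are bounds and squares are counting ratios with their 95% interval. Most points lie below 0, and in the Tcf7 comparison Il2ra and Cd4 are the filled points above it.

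Levels of other markers are given beside the 4 genes, with counts of calls for the lists here and below. Of all tested genes, 6.31% were called lower and 6.1% higher in D/N440K against +/+. In +/N440K against +/+ these shares were 5.3% and 4.79%, and in the Tcf7 comparison 11.1% and 12%. Cd24a was at 3.43 and 1.02 CPM in D/N440K, 2.45 and 0 CPM in +/N440K and 10.2 and 12.5 CPM in Bcl11b +/+ libraries. It was at 2.43, 1.70 and 2.23 CPM in libraries labelled Tcf7 F/F:Vav1-Cre and at 9.02 and 11.3 CPM in Tcf7 +/+ libraries, so it was lower in every mutant library in which Arpp21 was. The summed level of 11 NK and ILC1 genes was 2410 to 2477 CPM in D/N440K, 2071 to 2223 CPM in +/N440K and 1098 to 1213 CPM in Bcl11b +/+ libraries, with 11 of 11 called higher in D/N440K and 10 of 11 in +/N440K. In the Tcf7 table it went the other way, at 860 to 1012 CPM in libraries labelled Tcf7 F/F:Vav1-Cre and 1217 to 1433 CPM in Tcf7 +/+ libraries, with 8 of 11 called lower and 1, Gzmb, higher.

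The 5 genes of gamma-delta type 17 cells summed to 226 to 258 CPM in D/N440K, 367 to 370.5 CPM in +/N440K and 1186 to 1424 CPM in Bcl11b +/+ libraries, and 5 of 5 fell in both mutants. They summed to 1184 to 1270.4 CPM in libraries labelled Tcf7 F/F:Vav1-Cre and 1065 to 1303 CPM in Tcf7 +/+ libraries, and in that comparison Sox13 fell and Il17re and Maf rose. Of 8 mature alpha-beta T genes, 5 fell and 1 rose in D/N440K, 4 fell and 2 rose in +/N440K, and 6 fell and 1 rose in libraries labelled Tcf7 F/F:Vav1-Cre. Myeloid genes summed to 303 CPM in both D/N440K libraries, 215 to 257 CPM in +/N440K and 104 to 157 CPM in Bcl11b +/+ libraries, with S100a9 and Elane at 0 there. They summed to 917 to 1052 CPM in libraries labelled Tcf7 F/F:Vav1-Cre against 339.9 to 556 CPM in Tcf7 +/+ libraries. Of 4 tested in each comparison, 3 were called higher in D/N440K, 2 in +/N440K and 3 in the Tcf7 comparison, and 0 were called lower. Erythroid genes summed to 92.5 to 123 CPM in D/N440K, 11.8 to 26.9 CPM in +/N440K and 28.2 to 62.4 CPM in Bcl11b +/+ libraries. Of 4 tested, 3 were called higher in D/N440K and 0 in +/N440K. They summed to 8.48 to 12.1 CPM in libraries labelled Tcf7 F/F:Vav1-Cre and 8.45 to 9.02 CPM in Tcf7 +/+ libraries. Stromal and epithelial genes summed to 18.0 to 30.5 CPM in D/N440K, 31.6 to 31.8 CPM in +/N440K and 25.6 to 25.7 CPM in Bcl11b +/+ libraries. They summed to 28.4 to 38.4 CPM in libraries labelled Tcf7 F/F:Vav1-Cre and 16.3 to 18.0 CPM in Tcf7 +/+ libraries. There Krt8 was called higher and Epcam did not pass. The part of a changed mix of cells in the values of Arpp21, Endou, Aqp11 and Mns1 was not tested.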

How the data were processed

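Per the labels' protocols, libraries of total RNA came from a modified RamDA-seq, in which cDNA from oligo(dT) and not-so-random priming is cut by Tn5 and amplified. The authors deposited whole read counts per Ensembl gene and CPM tables, here treated as signal; 100% of the deposited CPM values gave back the deposited counts (tolerance 0.01 reads). The tools named are STAR 2.7.3a, HTSeq 0.11.2, fastp 0.20.0, Picard 2.21.1, SAMtools 1.9 and edgeR, with mm10/GRCm38, per the submitters' processing notes; annotation release and strand setting are not given in the sources used here.

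Groups came from the sample titles. Each table was filtered (filterByExpr, minimum count 10), TMM-normalised and fitted by edgeR 4.0.16's two-sided quasi-likelihood test (R 4.3.3, limma 3.58.1), all groups of a table sharing 1 spread, with 3 residual degrees of freedom; p-values were adjusted by Benjamini-Hochberg over all genes of a table and called under 0.05. SE is the size of the unshrunk log2 fold change over the root of the F statistic. For a group at 0 counts a bound was set with 3 counts as its floor; groups of 1 to 3 counts got an exact 95% ratio interval. Likeness is Pearson's r of log2 CPM (prior count 2), centred per table, among genes whose log2 CPM averaged at least 3; the 3 nearest genes per member and the 6 nearest to the mean are named. In the immature list up to 3 called genes were named per comparison by p, while Myb, Rag2, Dntt and Cd4 there, and genes named in the marker lists of other cells, were named after their values were seen. On simulated data the models called 57 to 79% of 2-fold changes and 91 to 94% of 4-fold changes, depending on the comparison. The changed genes there were drawn at random from all tested genes. These rates need not hold for genes with as few reads as the 4 genes had in the mutants. Of their calls there, 3.68 to 8.70% were false, with the highest share in D/N440K against +/N440K. Positions come from the GRCm38 annotation and sequences from RefSeq (GRCm38.p6); no start window or protein sequence was used for Endou. DESeq2 1.42.0, other filters and scalings, fits with a replicate block, on the compared groups alone and without each library in turn were tried, and edgeR on recovered reads was added after seeing the data. Total counts of 999381 to 1842717 per library limit precision for genes of few reads. The members and lists were chosen with earlier results of these data known. Python 3.11.15 with pandas 2.3.3, scipy 1.17.1, numpy 2.4.6 and matplotlib 3.10.9 made the tables and figures. Some genes of the marker lists are not reported here and enter no list count or sum.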

Additional observations from a re-analysis of the deposited data

How the results depend on the processing

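The members may have been chosen on comparisons with +/+, so their calls there say nothing of stability and only the spread of the values is given. Over the alternatives, the log2 fold change of Arpp21 was -7.05 to -3.38 in D/N440K, -6.86 to -4.46 in +/N440K and -5.73 to -5.20 in the Tcf7 table. That of Aqp11 was -2.67 to -1.07, -1.81 to -1.38 and -3.09 to -2.54 in the same order. That of Mns1 was -0.26 to 0.78, -0.03 to 0.31 and -2.06 to -0.82. Called genes numbered 1353 in D/N440K against +/+ (DESeq2 528), 1101 in +/N440K against +/+ (DESeq2 357), 58 between the mutants (DESeq2 4, no filter 91) and 2863 in the Tcf7 table (no filter 1606). Leaving out each library gave 924 to 1571, 726 to 1121, 25 to 91 and 1700 to 4612. Genes of the immature list called lower were 10 to 13, 10 to 12, 0 to 1 and 11 to 12 in the same order, and 0 between the mutants with DESeq2. Between the mutants, uncalled differences changed sign for Arpp21 (-1.93 without D/N440K replicate 2, up to 2.48), Aqp11 (0.09 without +/N440K replicate 1, 0.49 without D/N440K replicate 1, down to -1.11), Mns1 (-0.38 without D/N440K replicate 2, up to 0.66) and Cd24a (-0.07 without +/N440K replicate 2, -0.36 without D/N440K replicate 1, up to 4.38). The cause was not tested. With the replicate number as a block, 1267, 982, 37 and 1996 genes were called. Samples of the same number correlated at -0.112 to 0.0736 around their group means. This gave no sign of pairing by number, but with so few libraries a group it cannot exclude pairing. Only the 2 groups compared could not be tried for the Tcf7 table, which holds 2 groups. Where 1 library was left in a group, its spread was taken from the other groups. With Arpp21, Endou, Aqp11 and Mns1 at 0 to 14.2 CPM in the mutants, depth limits what can be said of differences between mutant groups.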
